A study of Rattus norvegicus with 17 samples.

Results

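The genes described here encode the machinery that brings proteins into mitochondria: the Timm and Tomm genes, with Pam16, Dnajc19, Grpel1, Grpel2, Pmpca, Pmpcb and Samm50. They were taken by name from the protein-coding entries of the deposited count table, which gave 30 genes of 32495 named entries. Of these, 28 had enough counts to be tested. Gastrocnemius, a hindlimb muscle, was sampled from tumor-bearing rats given chemotherapy, from tumor-bearing rats without chemotherapy and from healthy rats. The titles give a control diet for every sample. The 7 chemotherapy libraries were counted as 6 samples, because libraries 11 and 12 were summed. Their counts were the closest of any pair within a group, with a chi-square per degree of freedom of 2.04 against 5.47 for the next closest pair, though still above the 1 that sampling noise gives. With 5 tumor and 5 healthy samples this left 16 in all. The labels name neither the tumor, its site, the agent, its dose or timing, nor the strain, sex and age of the rats. They do not say that the libraries came from separate animals, so a p-value measures the spread between these samples.

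Nearly all proteins of the mitochondrion are encoded in the nucleus, made in the cytosol and imported as precursors. The TOM complex forms the entry gate of the outer membrane, and behind it the TIM23 complex passes precursors with a cleavable presequence into the matrix, pulled in by a motor built on the chaperone Hspa9. The TIM22 complex places carrier proteins in the inner membrane after small TIM chaperones have escorted them across the intermembrane space. In skeletal muscle this supply feeds a mitochondrial population that differs between slow and fast fibers and turns over with use.

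Total RNA was depleted of ribosomal RNA before sequencing, per the labels, and the libraries held 3023899 to 15777909 counts each as deposited. Levels are given as CPM, each gene's share of the library's counts scaled up to a fixed total and adjusted by TMM, a factor that lines up the bulk of genes between libraries, and they are not corrected for gene length. A level of one gene is therefore compared between samples and not with another gene. The muscle fiber markers with an entry, 5 of 8, were Acta1, Ckm, Mb, Myh4 and Myh7. They summed to 147420 to 180698 CPM with chemotherapy, 150538 to 213842 in tumor and 186199 to 268053 in healthy samples. Muscle fiber RNA was therefore abundant in every sample, but these markers do not tell gastrocnemius from other skeletal muscles. The alignment names end in MB or VM, with no meaning given. MB stood on chemotherapy sample 11 and healthy samples 1 to 4, and VM on the other 11 samples, so the suffix and the healthy group can hardly be told apart.

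Of the 28 tested import genes, 9 were called between chemotherapy-treated and healthy rats, at a Benjamini-Hochberg adjusted p below 0.05 over all 11856 genes tested with edgeR. These groups differ in both tumor and chemotherapy, whose parts cannot be told apart in this comparison. The 9 are 32.1% of the members, beside 13.7% of all genes called. The 8 called higher, 28.6% of the members beside 7.3% of all genes, were Tomm7, Tomm5, Dnajc19, Timm21, Timm29, Tomm20, Tomm70 and Timm17a. Samm50 was the 1 called lower, 3.57% of the members beside 6.41% of all genes. Scaled by total counts, which moved the median of all genes to 0.12 on the log2 scale, 11 members were called higher and 0 lower, and the calls over all genes moved likewise, to 1669 higher and 348 lower, beside 865 and 760. The median log2 fold change of the members was 0.21 and that of all genes -0.02, and 20 of the 28 had a positive fold change, beside 48.8% of all genes. At an unadjusted p below 0.05 there were 13 members, beside 36.4% of all genes, 10 of them higher (beside 18.9%) and 3 lower (beside 17.5%).

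These calls depended on single libraries. Without healthy library 1, 3 or 4, or without chemotherapy library 13, 14 or 15, neither a member nor any other gene of the table was called, and without chemotherapy library 16 there were 3 members called (Tomm7, Tomm5 and Dnajc19), with 4.48% of all genes. No member was called with the suffix as a term, among the VM libraries alone, which hold 1 healthy sample, without healthy libraries 1, 3 and 4 together, or with 1 surrogate variable, and no other gene of the table was called in these 4 fits either. The fold changes of the 9 called genes kept their sign in all 29 alternatives, but not their size. Outside the fits that left out 1 sample, the smallest log2 fold changes were 0.48 for Tomm7, 0.47 for Tomm5 and 0.35 for Dnajc19. For Timm29 the smallest was 0.20, for Tomm20 and Timm17a 0.13, for Timm21 0.12, for Tomm70 0.01 and for Samm50 -0.10. In the VM libraries the log2 fold changes of Tomm7, Dnajc19 and Tomm5 were 0.98, 1.01 and 1.08. Without healthy libraries 1, 3 and 4 they were 0.67, 0.53 and 0.78. The median of the members was 0.11 with the suffix as a term and 0.21 in the VM libraries. Without healthy libraries 1, 3 and 4 the median was 0.165, and with 1 surrogate variable 0.03.

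**Figure D1:**
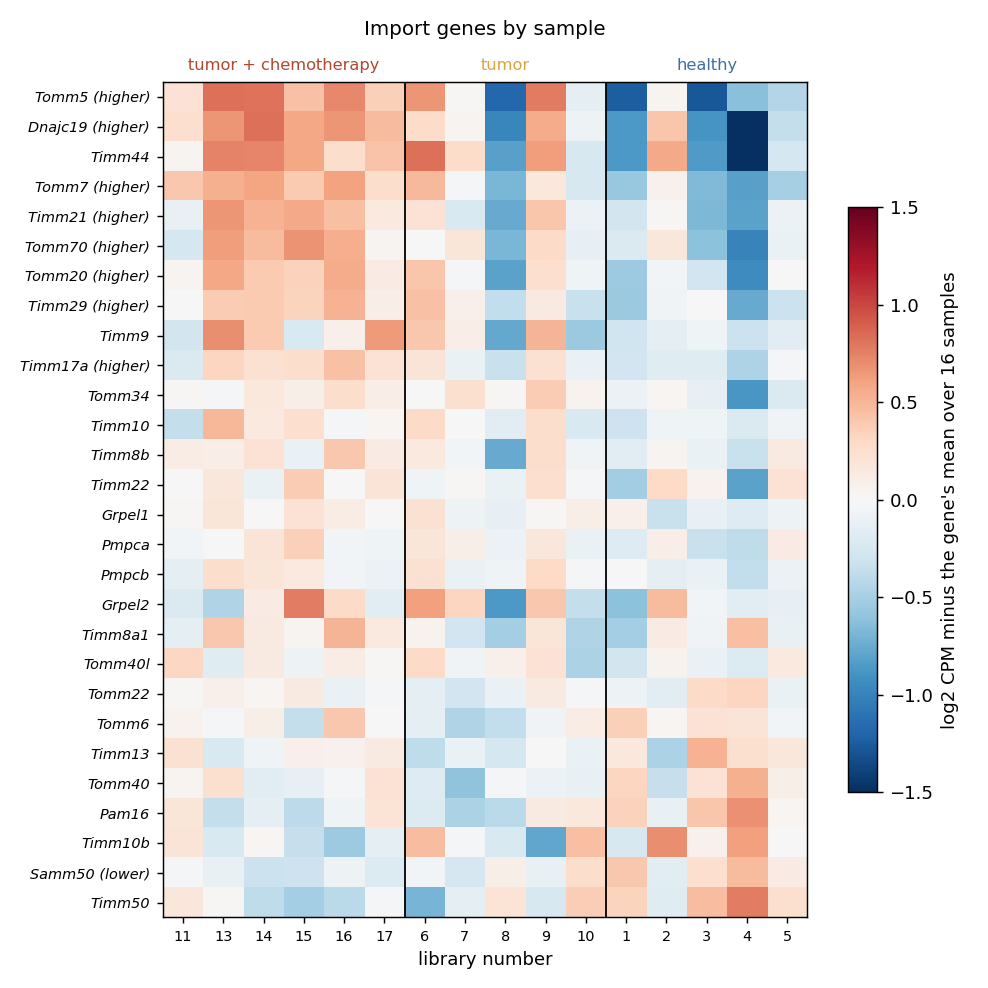
Each row is an import gene, each column a sample, and the color gives log2 CPM minus the gene's mean over the 16 samples, with values beyond 1.5 in either direction drawn in the end color; genes run from the highest to the lowest fold change between chemotherapy-treated and healthy rats, and those called are marked. The upper rows are red in most chemotherapy samples and blue in healthy samples 1, 3 and 4 and in tumor sample 8, while the lowest rows run the other way in healthy samples 1, 3 and 4.

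RefSeq promoters of the rat (build GRCr8), from 250 bases before to 50 after the start, were matched by symbol for 28 of the 30 genes. They were searched on both strands for GCGC, any base, then TGCGC, the letters recognized by the nuclear respiratory factor NRF1, and CCGGAAG, the core bound by ETS factors such as GABPA, which are known to act on many nuclear genes for mitochondrial proteins. The NRF1 letters stood in 6 of 28 member promoters (21.4%), beside 4.25% of all 33469 promoters and 9.74% of the 9997 promoters of tested genes. The ETS letters stood in 11 of 28 (39.3%), beside 8.75% and 17.2%. Tomm7, Tomm20 and Timm21 of the 7 called-higher genes with a promoter held the NRF1 letters, and so did Pam16, Grpel1 and Grpel2 of the 18 members not called, so the letters stood on both sides of the call. Tomm20 and Tomm70 of the 7 held the ETS letters, and 8 of the 18 did.

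The 250 bases before the start are shown for 3 genes called higher and 2 not called, to let the same letters be seen in both, with NRF1 and ETS matches in capitals and each read 5′ to 3′ on its gene's strand. The windows are chr4:12197253-12197502 (plus strand) for Tomm7, chr19:71832421-71832670 (minus strand) for Tomm20, chr11:56886277-56886526 (minus strand) for Tomm70, chr10:11449242-11449491 (plus strand) for Pam16 and chr14:78522869-78523118 (minus strand) for Grpel1, all in GRCr8.
Tomm7: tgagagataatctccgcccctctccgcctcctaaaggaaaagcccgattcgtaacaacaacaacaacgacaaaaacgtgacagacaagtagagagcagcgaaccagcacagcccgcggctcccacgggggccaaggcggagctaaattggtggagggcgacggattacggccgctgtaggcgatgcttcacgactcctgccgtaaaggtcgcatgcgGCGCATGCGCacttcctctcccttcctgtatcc
Tomm20: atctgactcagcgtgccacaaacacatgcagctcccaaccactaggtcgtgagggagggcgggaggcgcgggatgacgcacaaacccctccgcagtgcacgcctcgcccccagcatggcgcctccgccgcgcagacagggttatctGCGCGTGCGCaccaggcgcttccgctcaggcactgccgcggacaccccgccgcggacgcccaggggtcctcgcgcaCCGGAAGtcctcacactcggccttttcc
Tomm70: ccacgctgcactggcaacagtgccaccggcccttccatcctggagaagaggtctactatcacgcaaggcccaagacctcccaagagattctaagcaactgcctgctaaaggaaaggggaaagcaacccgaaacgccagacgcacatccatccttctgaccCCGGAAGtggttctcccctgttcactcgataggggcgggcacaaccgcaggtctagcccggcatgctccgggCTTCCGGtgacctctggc
Pam16: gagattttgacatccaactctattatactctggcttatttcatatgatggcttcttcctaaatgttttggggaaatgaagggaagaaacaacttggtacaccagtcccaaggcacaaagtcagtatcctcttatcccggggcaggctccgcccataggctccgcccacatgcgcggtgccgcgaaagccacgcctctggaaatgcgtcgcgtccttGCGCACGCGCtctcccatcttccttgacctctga
Grpel1: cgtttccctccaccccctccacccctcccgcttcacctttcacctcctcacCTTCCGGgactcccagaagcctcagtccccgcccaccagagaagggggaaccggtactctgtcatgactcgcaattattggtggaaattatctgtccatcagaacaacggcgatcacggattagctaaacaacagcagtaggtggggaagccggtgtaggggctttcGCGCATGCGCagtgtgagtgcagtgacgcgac
The NRF1 match began 33 bases before the start in Tomm7, 34 in Pam16, 32 in Grpel1 and 104 in Tomm20. Tomm70 held ETS matches at 90 and 18 bases before the start, Tomm20 at 28 and Grpel1 at 199. The matches are letters in a window, and no binding was measured. Of 6 further motifs searched, CCAAT stood in 42.9% of member promoters, 37.5% of all promoters and 37.2% of those of tested genes. In the same order, CACGTG stood in 10.7%, 6.42% and 9.17%, and GGGGCGGGG in 7.14%, 9.73% and 20.1%. The YY1 letters AAGATG followed by GCGGC stood in 3.57%, 0.675% and 1.94%, TCAAGGTCA in 3.57%, 0.433% and 0.29%, and TGACGTCA in 0%, 1.83% and 2.87%. Overlap between different motifs was allowed.

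At the outer membrane, the receptors Tomm20 and Tomm70 rose between chemotherapy-treated and healthy rats, and the third receptor, Tomm22, had a log2 fold change of -0.05 ± 0.12 (SE; adjusted p = 0.782). Tomm20, which recognizes presequences, had 66.9, 84.0 and 96.8 CPM as lowest, median and highest of the 6 chemotherapy samples. The tumor samples 6 to 10 had 86.4, 64.1, 37.3, 77.6 and 62.3 CPM, and the healthy samples 1 to 5 had 44.4, 63.2, 53.4, 33.8 and 64.7 CPM. Every chemotherapy sample was above every healthy one, while the tumor samples spread over both ranges. In log2 terms the fold change against healthy was 0.68 ± 0.20 (SE; edgeR adjusted p = 0.0364), that is 1.60-fold.

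Tomm70, which receives carrier precursors and docks cytosolic chaperones, ranged from 35.0 to 67.3 CPM with a median of 59.8 in chemotherapy samples. In tumor samples the values were 42.1, 47.7, 26.1, 51.3 and 38.7 CPM, and in healthy samples 36.1, 47.2, 27.5, 21.1 and 39.2 CPM. Chemotherapy samples 11 and 17 lay within the healthy range and the other 4 above it. Its log2 fold change against healthy was 0.69 ± 0.22 (adjusted p = 0.0444), and with 1 surrogate variable it was 0.01. The call of Tomm70 ended in 9 of 16 fits that left out a sample, also without tumor library 7 (adjusted p = 0.0516) or 10 (0.0517), as well as with libraries 11 and 12 kept apart (0.0669) and with no filter on low counts (0.053).

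The channel itself showed no call. Tomm40, the pore-forming barrel, had 24.4, 27.9 and 32.7 CPM as lowest, median and highest chemotherapy values. Tumor samples 6 to 10 gave 24.1, 18.2, 27.3, 26.04 and 25.6 CPM, and the healthy samples 34.6, 21.7, 32.1, 39.8 and 29.2 CPM. Healthy samples 2 and 4 held both ends of the healthy range, which enclosed all but 1 of the other samples, tumor sample 7. The log2 fold change against healthy was -0.16 ± 0.15 (adjusted p = 0.454). For Tomm40l, a second form of the channel, it was 0.15 ± 0.16 (adjusted p = 0.514).

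Of the small TOM subunits, which surround the channel and affect how the complex assembles, Tomm7 and Tomm5 rose and Tomm6 was not called. Tomm7 had 50.6, 58.5 and 64.1 CPM as lowest, median and highest chemotherapy values. The tumor samples had 59.0, 41.3, 26.1, 47.2 and 35.8 CPM, and the healthy samples 28.5, 43.9, 26.6, 24.0 and 29.8 CPM. All chemotherapy samples lay above all healthy ones, with healthy sample 2 the nearest. Against healthy the log2 fold change was 0.95 ± 0.19 (adjusted p = 0.0261), that is 1.93-fold, the smallest p among the members.

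Tomm5 was read from few counts, 15 to 113 per deposited library. Its lowest, median and highest chemotherapy values were 7.77, 10.0 and 11.8 CPM. In tumor samples the values were 10.5, 6.77, 2.94, 11.4 and 6.05 CPM, and in healthy samples 2.83, 6.86, 2.77, 4.32 and 4.91 CPM. The chemotherapy and healthy samples again did not overlap. In log2 terms the fold change was 1.23 ± 0.31 (adjusted p = 0.0281), that is 2.34-fold and the largest rise among the members. Tomm6 averaged 40.0 ± 6.76 CPM in chemotherapy samples and 43.3 ± 4.82 in healthy samples (SD, n = 6 and 5). Its log2 fold change was -0.11 ± 0.14 (adjusted p = 0.587). Tomm7, Tomm5 and Tomm20 were the 3 members whose chemotherapy samples all lay above the healthy ones (10.7%), beside 2.02% of all genes. No member's chemotherapy samples all lay below, beside 1.97% of all genes.

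**Figure D2:**
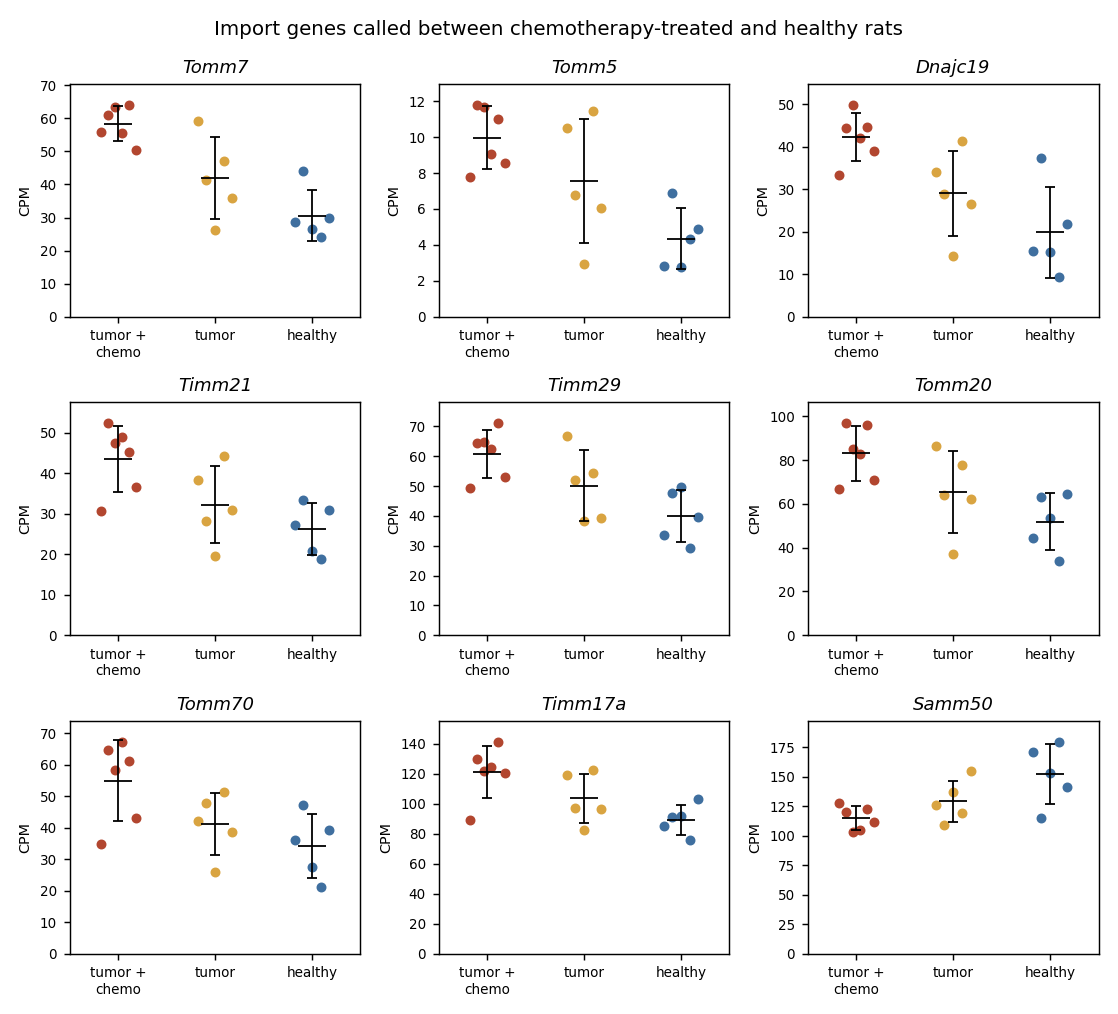
Points are CPM in each sample for the 9 import genes called between chemotherapy-treated and healthy rats, in 6 tumor plus chemotherapy, 5 tumor and 5 healthy samples, with bars at the mean ± SD and axes from 0. Tomm7, Tomm5 and Tomm20 show no overlap between chemotherapy and healthy samples, the tumor samples reach into both ranges, and Samm50 runs the opposite way.

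Samm50, the core of the machinery that folds barrel proteins into the outer membrane, fell. It had 103, 116 and 128 CPM as lowest, median and highest chemotherapy values. Tumor samples 6 to 10 gave 126, 109, 137, 119 and 155 CPM, and the healthy samples 171, 115, 154, 179.8 and 141 CPM. Healthy sample 2 lay among the chemotherapy samples and the other 4 healthy samples above all of them. Its log2 fold change was -0.40 ± 0.13 (adjusted p = 0.0479). The call ended with DESeq2 size factors (adjusted p = 0.0506), and scaled by total counts the fold change was -0.26 (0.139). It also ended with no filter on low counts (0.0807), with only the 2 groups in the fit (0.0598), with libraries 11 and 12 kept apart (0.0533) and without chemotherapy library 17 (0.0701).

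Tomm34, a cytosolic protein that binds precursors and chaperones, was not called. Its lowest, median and highest chemotherapy values were 25.1, 27.2 and 30.7 CPM. The tumor samples had 25.5, 30.1, 25.9, 33.3 and 26.5 CPM, and the healthy samples 24.0, 26.1, 23.5, 13.98 and 22.1 CPM. Healthy sample 4 stood lowest of all 16 samples. The log2 fold change between chemotherapy-treated and healthy rats was 0.34 ± 0.15 (adjusted p = 0.108).

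In the intermembrane space the 5 tested small TIM chaperones, which shield hydrophobic precursors, had no call and a median log2 fold change of 0.23, between -0.12 for Timm13 and 0.45 for Timm9. Timm8b, which pairs with Timm13, had 88.5, 103 and 126 CPM as lowest, median and highest chemotherapy values. In tumor samples the values were 105, 92.3, 56.3, 114 and 91.3 CPM, and in healthy samples 85.4, 97.8, 89.1, 75.2 and 104 CPM. Tumor sample 8 stood lowest of all 16 samples. The log2 fold change against healthy was 0.23 ± 0.16 (adjusted p = 0.296). Timm10 and Timm8a1 were at 0.24 ± 0.15 and 0.16 ± 0.20 (SE). Timm8a2, a second gene of the Timm8a type, had 0 counts in all 17 libraries and was not tested.

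Of the TIM22 complex, Timm29 rose. This subunit, described in human cells, had 49.5, 63.4 and 71.0 CPM as lowest, median and highest chemotherapy values. Tumor samples 6 to 10 gave 66.9, 52.1, 38.3, 54.3 and 39.3 CPM, and the healthy samples 33.6, 47.5, 49.7, 29.2 and 39.7 CPM. Chemotherapy sample 11 lay just under healthy sample 3, and the other 5 above all healthy samples. In log2 terms the fold change was 0.61 ± 0.17 (adjusted p = 0.0334), that is 1.52-fold. Timm22, the channel of the complex, was at 0.21 ± 0.18 (adjusted p = 0.407). Timm10b, a small TIM bound to it, was at -0.39 ± 0.26 (0.293) from 9 to 81 counts per library.

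Of the TIM23 complex, Timm21 and Timm17a rose and Timm50 was not called. Timm21, which links the complex to TOM and to the respiratory chain, had 30.6, 46.3 and 52.3 CPM as lowest, median and highest chemotherapy values. The tumor samples had 38.3, 28.2, 19.5, 44.1 and 31.0 CPM, and the healthy samples 27.2, 33.5, 20.7, 18.9 and 30.9 CPM. Chemotherapy sample 11 lay among the healthy samples and the other 5 above them. Its log2 fold change was 0.73 ± 0.21 (adjusted p = 0.0333), that is 1.66-fold.

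Timm17a, a core subunit of the channel, had 89.2, 123 and 141 CPM as lowest, median and highest chemotherapy values. In tumor samples the values were 119, 97.3, 82.6, 122 and 96.9 CPM, and in healthy samples 85.4, 91.4, 91.7, 75.8 and 103 CPM. Again chemotherapy sample 11 lay among the healthy samples and the other 5 above them. The log2 fold change was 0.44 ± 0.14 (adjusted p = 0.0446). The call of Timm17a ended in 10 of 16 fits that left out a sample, also without tumor library 7 (adjusted p = 0.0531), tumor library 10 (0.0527) or chemotherapy library 17 (0.0619), as well as with libraries 11 and 12 kept apart (0.0699) and with no filter on low counts (0.0682). Timm50, the receptor that takes precursors from TOM, averaged 29.7 ± 5.70 CPM in chemotherapy and 42.7 ± 10.0 in healthy samples (SD, n = 6 and 5). Its log2 fold change was the lowest of the members, -0.53 ± 0.19 (adjusted p = 0.0622). Timm17b, the second Timm17 gene, had 1 count in all 17 libraries together and was not tested. The annotation used for counting is not stated, so a silent gene and one missed in counting cannot be told apart. Timm23 is not analysed here.

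**Figure D3:**
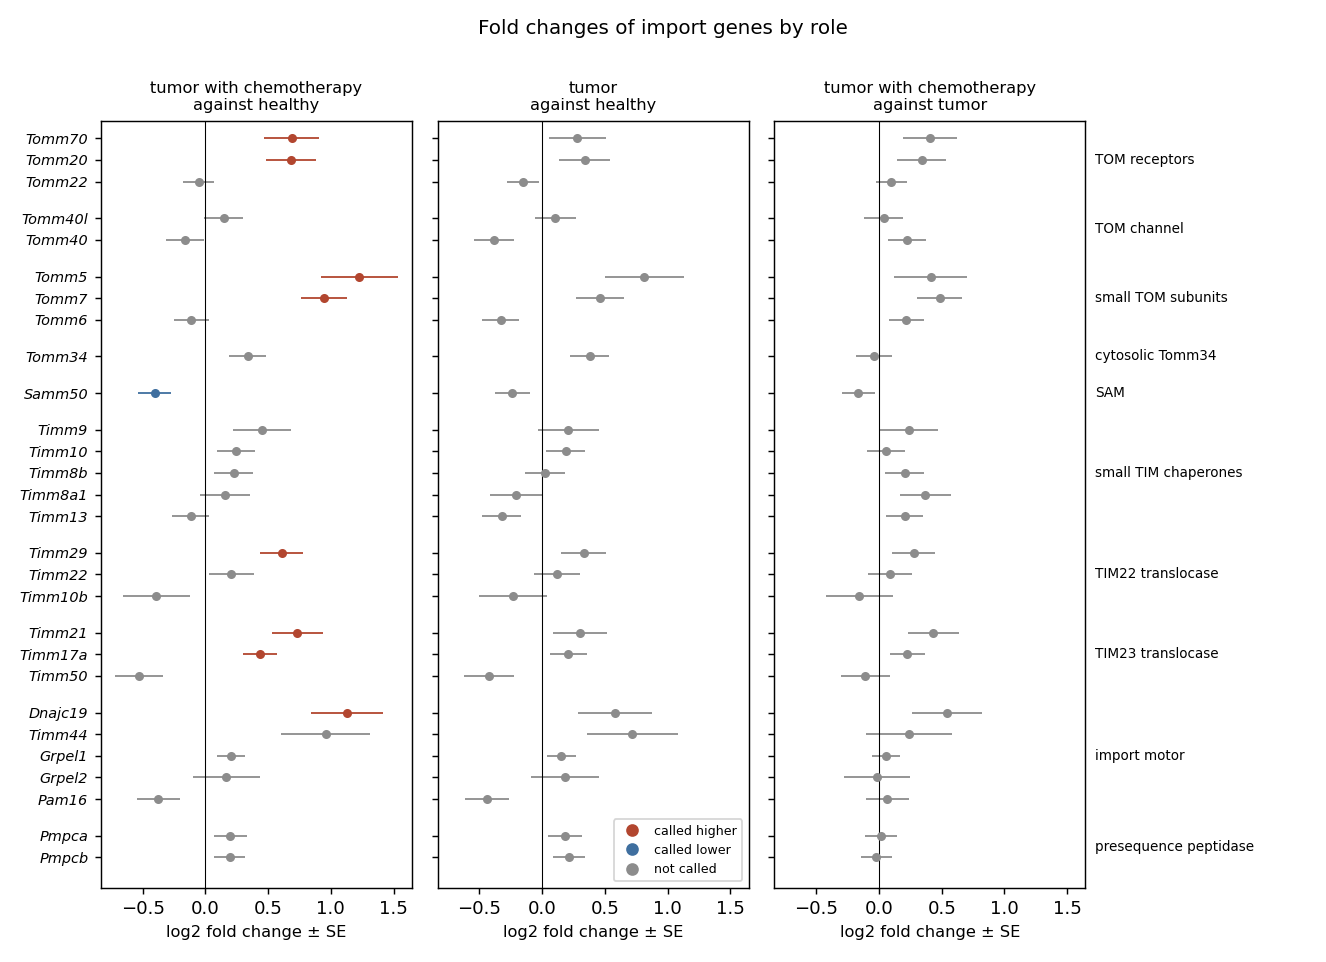
Points are log2 fold changes with bars of 1 SE for the 28 tested import genes, grouped by role, in the comparisons of chemotherapy-treated with healthy, tumor with healthy and chemotherapy-treated with tumor samples; red marks genes called higher, blue genes called lower and gray genes not called. All 9 calls stand in the first panel. In that panel the points lie on both sides of 0 in every role except cytosolic Tomm34, SAM (Samm50) and the presequence peptidase.

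In the motor of the matrix side, 1 of the 5 members rose. Dnajc19 is a J protein that stimulates Hspa9, and its loss causes a heart disease in humans. It had 33.3, 43.3 and 49.9 CPM as lowest, median and highest chemotherapy values. Tumor samples 6 to 10 gave 34.1, 28.9, 14.2, 41.4 and 26.6 CPM, and the healthy samples 15.5, 37.3, 15.2, 9.32 and 21.9 CPM. Healthy sample 2 lay within the chemotherapy range and the other healthy samples below it. In log2 terms the fold change was 1.13 ± 0.29 (adjusted p = 0.029), that is 2.18-fold.

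Pam16, the J-like partner that binds Dnajc19 and holds it at the channel, was not called. It had 33.0, 40.5 and 49.8 CPM as lowest, median and highest chemotherapy values. The tumor samples had 37.7, 31.2, 32.7, 47.6 and 48.4 CPM, and the healthy samples 55.0, 40.1, 57.8, 69.6 and 44.1 CPM. Healthy samples 1, 3 and 4 lay above every other sample. The log2 fold change between chemotherapy-treated and healthy rats was -0.37 ± 0.17 (adjusted p = 0.117), and -0.03 without those 3 samples.

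Timm44, the tether of Hspa9, was not called at a log2 fold change of 0.96 ± 0.35 (adjusted p = 0.0656). It averaged 69.5 ± 12.9 CPM in chemotherapy and 36.4 ± 23.3 in healthy samples (SD, n = 6 and 5), and the highest healthy sample had 6.19 times the lowest. Grpel1, the factor that frees Hspa9 of its nucleotide, had 61.4, 64.7 and 71.7 CPM as lowest, median and highest chemotherapy values. In tumor samples the values were 72.3, 58.5, 56.9, 62.7 and 65.6 CPM, and in healthy samples 65.0, 49.1, 57.0, 54.0 and 58.7 CPM. The groups overlapped, with a log2 fold change of 0.21 ± 0.11 (adjusted p = 0.186). Its relative Grpel2 was at 0.17 ± 0.27 (0.67).

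The presequence peptidase, which cuts the import signal off in the matrix, showed no call in either subunit. Pmpcb, the catalytic subunit, had 73.6, 85.0 and 98.3 CPM as lowest, median and highest chemotherapy values. Tumor samples 6 to 10 gave 95.9, 76.4, 78.2, 101 and 80.6 CPM, and the healthy samples 82.2, 74.1, 76.2, 63.2 and 76.9 CPM. All healthy samples but sample 4 lay within the chemotherapy range. The log2 fold changes between chemotherapy-treated and healthy rats were 0.19 ± 0.12 for Pmpcb (adjusted p = 0.257) and 0.20 ± 0.13 for Pmpca (0.277).

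Ratios of counts between partners within a sample do not depend on how libraries are scaled. The 4 pairs were chosen after their values were seen, so they are given with no test. Each sets a gene called higher over one with a negative fold change against healthy. A higher ratio with chemotherapy than in healthy samples was therefore built into the choice. The ratio of Dnajc19 to Pam16 had a median of 1.17 and a range of 0.679 to 1.31 in chemotherapy samples. It was 0.905, 0.927, 0.436, 0.87 and 0.55 in tumor samples and 0.282, 0.932, 0.263, 0.134 and 0.496 in healthy samples. Healthy sample 2 lay above chemotherapy samples 11 and 17, and the other healthy samples lay below all chemotherapy samples. For Tomm7 to Tomm6 the median was 1.46 and the range 1.25 to 1.84 in chemotherapy samples, with 1.69, 1.46, 0.87, 1.26 and 0.855 in tumor samples and 0.572, 1.11, 0.589, 0.544 and 0.792 in healthy samples. This was the 1 pair of the 4 in which chemotherapy and healthy samples did not overlap, and they did not overlap for Tomm7 alone either. The share of other gene pairs without overlap was not computed. For Timm21 to Timm50 the median was 1.67 with chemotherapy, 0.931 in tumor and 0.649 in healthy samples. For Tomm20 to Tomm40 it was 3.12 with chemotherapy, 2.98 in tumor and 1.66 in healthy samples.

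**Figure D4:**
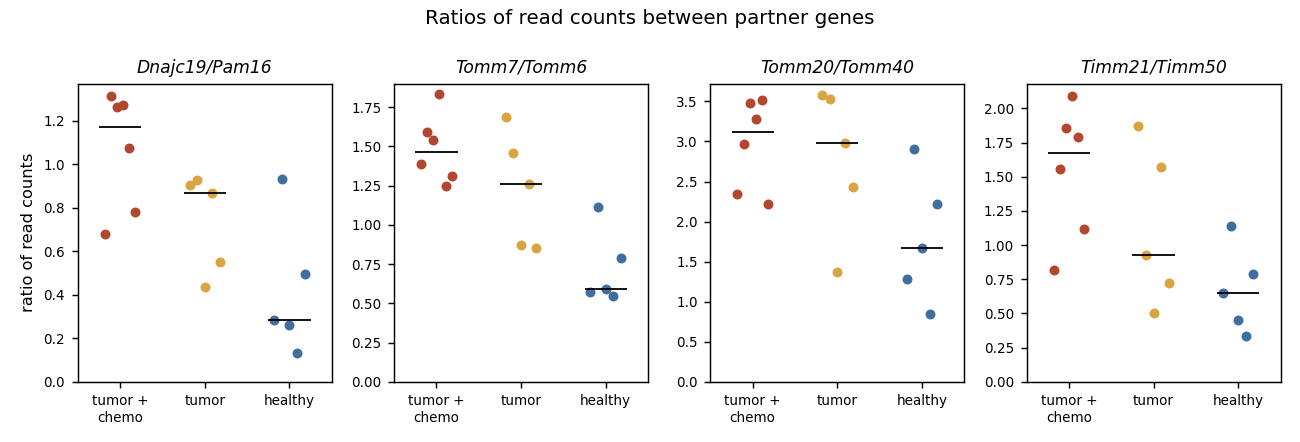
Points are ratios of read counts between pairs of genes of one complex in each of 6 tumor plus chemotherapy, 5 tumor and 5 healthy samples, with a line at the median and axes from 0; the ratios are not corrected for length and are compared between samples only. For Tomm7 to Tomm6 every chemotherapy sample (1.25 and above) lies above every healthy one (1.11 and below), and in all 4 panels the medians fall in the order chemotherapy, tumor, healthy. The pairs were chosen after their values were seen, each a gene called higher over one with a negative fold change. Chemotherapy above healthy was therefore built into the choice.

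Tumor-bearing rats without chemotherapy showed no call against healthy rats, neither among the 28 members nor among all 11856 genes (0%). The smallest adjusted p of all genes was 0.211 with edgeR, and DESeq2 called 11 genes higher and 18 lower and limma-voom 0, with no member among them. At an unadjusted p below 0.05 there were 8 members (28.6%), beside 18% of all genes. Of these, 3 had positive fold changes (10.7%, beside 8.88% of all genes) and 5 negative ones (17.9%, beside 9.12%). Tomm5 had the smallest p of the members, with 7.54 ± 3.46 CPM in tumor and 4.34 ± 1.69 in healthy samples (SD, n = 5 each) and a log2 fold change of 0.81 ± 0.32 (adjusted p = 0.242). Pam16 came next, with 39.5 ± 8.15 CPM in tumor and 53.3 ± 11.7 in healthy samples and a log2 fold change of -0.44 ± 0.18 (adjusted p = 0.247). A positive fold change stood at 19 of 28 members, beside 51% of all genes, and the median was 0.18, beside 0.01. The median of the members was -0.06 with the suffix as a term and 0.03 in the VM libraries alone, which hold 1 healthy sample. Without healthy libraries 1, 3 and 4 it was -0.01, and with 1 surrogate variable -0.05. No member's tumor samples all lay above or all below the healthy ones, beside 0.439% and 0.557% of all genes. Without healthy library 2 the table gave 245 genes higher and 259 lower, and no member was among them.

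Tumor-bearing rats with chemotherapy against those without likewise gave no call among the members or among all genes (0%), with a smallest adjusted p of 0.172 in the edgeR fit. DESeq2 called 1 gene higher and 7 lower and limma-voom 0, with no member among them. At an unadjusted p below 0.05 there were 2 members (7.14%), beside 5.78% of all genes, both of them higher (beside 1.97% higher and 3.81% lower in the table). They were Tomm7, with 58.4 ± 5.29 CPM in chemotherapy and 41.9 ± 12.3 in tumor samples (log2 fold change 0.48 ± 0.18, adjusted p = 0.778), and Timm21, with 43.5 ± 8.25 CPM in chemotherapy and 32.2 ± 9.49 in tumor samples (0.43 ± 0.20, 0.778; SD, n = 6 and 5). A positive fold change stood at 22 of 28 members, beside 50.6% of all genes, and the median was 0.20, beside 0.004. When each sample was left out in turn, the median of the members ranged from 0.07, without tumor library 8, to 0.25. In the other alternatives it ranged from 0.13 to 0.22. No member's groups were apart without overlap, beside 0.186% of all genes higher and 0.295% lower. The 3 comparisons share samples, so their fold changes are not independent of one another.

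Libraries also differed within each group. Of the 28, 14 were lowest among healthy samples in library 4, which was lowest for 26.8% of all genes, and 6 were highest there, beside 25.8%. Tumor library 8 was lowest of its group for 15 members, beside 26.9% of all genes, and tumor library 9 highest for 13, beside 18.1%. Chemotherapy library 11, the 1 chemotherapy sample with the suffix MB, was lowest of its group for 12, beside 23.4%. The highest healthy sample had 1.19 times the CPM of the lowest for Timm9, 4.01 times for Dnajc19 and 6.19 times for Timm44, the ends of the range being Timm9 and Timm44. All 28 together summed to 1217 to 1428 CPM with chemotherapy, 979 to 1378 in tumor and 1066 to 1187 in healthy samples.

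Other measures moved with the groups too. Small noncoding RNA genes took 0.688% to 1.41% of counts with chemotherapy, 0.813% to 2.15% in tumor and 0.806% to 3.60% in healthy samples, and the 20 most abundant genes took 34.0% to 37.6% with chemotherapy, 33.0% to 38.7% in tumor and 35.7% to 44.2% in healthy samples. The small noncoding share was highest in healthy samples 4 (3.60%), 1 (2.62%) and 3 (2.505%) and tumor sample 8 (2.15%). In healthy samples 2 and 5 it was 0.806% and 1.58%. The 20 most abundant genes took most in healthy samples 1 (44.2%), 3 (42.9%) and 4 (41.75%), with 38.7% in tumor sample 8. In healthy samples 2 and 5 they took 40.2% and 35.7%. Of 5 muscle fiber markers, 2 fell between chemotherapy-treated and healthy rats, Ckm and Acta1, where 6.41% of all genes were called lower. The others were not called, with log2 fold changes of 0.45 for Mb, -0.004 for Myh4 and -0.38 for Myh7. Of 5 fibroblast markers, 2 fell, Col3a1 and Pdgfra, and all 5 had negative fold changes. The sum of the 5 ranged from 2222 to 10789 CPM with chemotherapy, 2778 to 12980 in tumor and 4524 to 14211 in healthy samples. Of 4 endothelial markers, Tie1 fell, with 3 of the 4 fold changes negative and 1 positive (Tek, 0.09 on the log2 scale). Endothelial sums were 121 to 145 CPM with chemotherapy, 138 to 189 in tumor and 154 to 184 in healthy samples. The 5 leukocyte, 5 red blood cell, 3 adipocyte, 3 Schwann cell, 8 slow-fiber and 5 fast-fiber markers tested had no call, at this threshold. All 5 red blood cell markers had negative log2 fold changes (-1.08 to -0.81) and all 3 adipocyte markers positive ones (1.83 to 2.21). The 3 Schwann cell markers were positive, and of the leukocyte markers 1 was positive and 4 negative. Leukocyte sums were 99.7 to 180.2 CPM with chemotherapy, 85.7 to 154 in tumor and 101 to 228 in healthy samples. Red blood cell sums were 124 to 917 with chemotherapy, 227 to 588 in tumor and 440.4 to 1379 in healthy samples. Adipocyte sums were 12.003 to 206 CPM with chemotherapy, 8.48 to 100 in tumor and 3.78 to 26.6 in healthy samples. Schwann cell sums were 40.1 to 285 with chemotherapy, 44.4 to 264 in tumor and 41.4 to 162 in healthy samples. The slow-fiber sums were 6461 to 10833 CPM with chemotherapy, 8093 to 16043 in tumor and 5657 to 12973 in healthy samples. All 8 slow-fiber markers had a positive fold change between tumor and healthy samples (median log2 0.65) and a negative one between chemotherapy and tumor samples (median -0.43), none of them called. The fast-fiber sums were 119766 to 144438 with chemotherapy and 108631 to 167337 in healthy samples. The part of these measures in the members' changes was not tested. In a piece of tissue, fewer cells of a type and less RNA per cell cannot be told apart.

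Among 22 other genes of import, folding and inner membrane architecture tested, 5 rose and 1 fell between chemotherapy-treated and healthy rats, beside 7.3% and 6.41% of all genes, with a median log2 fold change of 0.08. Hspd1, the matrix chaperonin that folds imported proteins, averaged 207 ± 46.8 CPM in chemotherapy and 99.0 ± 46.0 in healthy samples (SD, n = 6 and 5; log2 fold change 1.07 ± 0.28 SE, adjusted p = 0.0303). Apool, a subunit of the MICOS complex that shapes cristae, averaged 20.4 ± 4.61 CPM in chemotherapy and 9.35 ± 4.57 CPM in healthy samples (1.17 ± 0.33, 0.0337). Hspa9, the chaperone at the heart of the motor, was not called at 0.45 ± 0.18 (adjusted p = 0.0836). Neither other comparison called any of the 22.

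Of 15 genes chosen to stand for mitochondrial content, 2 rose and 1 fell between chemotherapy-treated and healthy rats, beside 7.3% and 6.41% of all genes, with a median log2 fold change of 0.10. Uqcrc2 and Uqcrc1, both core proteins of respiratory complex III and relatives of the presequence peptidase, moved apart. Uqcrc2 averaged 545 ± 103 CPM in chemotherapy and 365 ± 81.8 in healthy samples (log2 fold change 0.58 ± 0.18, adjusted p = 0.0429). Uqcrc1 averaged 636 ± 56.4 CPM in chemotherapy and 861 ± 167 CPM in healthy samples (-0.44 ± 0.14, 0.0492). Slc25a4, the ADP/ATP carrier that is itself a TIM22 substrate, averaged 4122 ± 476 CPM in chemotherapy and 2851 ± 507 CPM in healthy samples (0.53 ± 0.17, 0.0443). The summed level of the 15 ranged from 17278 to 19878 CPM with chemotherapy, 15004 to 18894 in tumor and 15450 to 18773 in healthy samples, so the ranges overlapped.

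Some members share their place in the genome with other genes. In RefSeq, 11 of the 30 overlap another gene and 9 a protein-coding one. Among the called genes these are Tomm20 with Rbm34, Timm29 with Yipf2 and Dnajc19 with Fxr1. The library kit keeps the strand, per the labels, but whether the counting used it is not stated, so reads of such neighbours may be included.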

How the data were processed

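The authors deposited an unscaled table of read counts by gene, with 17 libraries. Tools named in the submitters' processing notes are CASAVA 1.9, FastQC 0.11.4, Trim Galore 0.4.1, Bowtie2 and TopHat2 2.0.10; build, annotation and counting program are not stated. Between 45.9% and 59.5% of the counts from 1 to 10 were even, with the highest shares in healthy libraries 4 (59.5%) and 3 (56.5%). Of 32883 entries, 388 without a gene name, 0.102% to 0.373% of counts, were left out.

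Libraries 11 and 12 were summed. All 16 samples entered 1 edgeR 4.0.16 model (R 4.3.3) with a mean per group, TMM scaling and robust quasi-likelihood tests, after filterByExpr at a minimum count of 10. Benjamini-Hochberg adjustment ran over 11856 genes. An SE is the fold change divided by the root of F. The script was tested on simulated data. Alternatives used DESeq2 1.42.0, limma 3.58.1 and sva 3.50.0.

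The members and lists were chosen with earlier results of these data known. Values per sample are given for called members, for the 2 with the smallest p in each other comparison and for the member of each role with the most CPM. From the lists, the called genes with the 3 smallest p are given, except 1 that is not reported here, and Hspa9, Timm44, Timm50 and the called markers were singled out after their values were seen.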

Additional observations from a re-analysis of the deposited data

How the results depend on the processing

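Between chemotherapy-treated and healthy rats, 9 members were called. The number was 0 with the suffix as a term, among VM libraries alone, without healthy libraries 1, 3 and 4, and with 1 surrogate variable, and in each of these 4 fits no gene of the table was called. It ranged from 0 to 12 when each sample was left out in turn, with 0% of all genes called where it was 0 and 31.7% where it was 12. It stayed within 1.5 times in the 9 other alternatives, at 6 to 11. The cause was not tested. The 2 other comparisons gave 0 members in all 29 alternatives. Between tumor and healthy samples, the median log2 fold change of the members was between -0.06 and 0.03 in the 4 fits named above. Of 551 fold changes recomputed for single genes, 433 kept their direction and their side of the threshold, 111 lost the call and 3 gained it. Direction turned in 4, none of them called: Tomm40 at 0.14 without healthy libraries 1, 3 and 4, and with 1 surrogate variable Tomm40 at 0.15, Timm8b at -0.057 and Pmpcb at -0.0039. All 111 lost calls fell on the 9 called genes, since a result not called has no call to lose. Of the 16 fits that left out a sample, these genes kept the call in 6 (Timm17a) to 10 (Tomm7, Tomm5 and Dnajc19). Of the 13 other alternatives, they kept it in 4 (Samm50) to 9. No paired analysis was possible because the sample titles link no sample of one group to a sample of another. Among tested members the fewest counts were behind Timm10b, 9 to 81 per library, and Tomm5, 15 to 113.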
